A study of Mus musculus with 16 samples.

Results

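Common myeloid progenitors (CMP) were compared with granulocyte-monocyte progenitors (GMP), the step at which a myeloid progenitor enters the granulocyte-monocyte branch. The compared levels come from 6 of the 16 microRNA (miR) arrays of the series, 3 per population, chosen by their titles. The main tests took their spread from all 16 arrays. Both populations came from the bone marrow of pooled female C57Bl/6 mice with no further treatment, and were depleted of cells with the lineage antigens B220, CD3, GR-1 and Ter119, enriched for c-kit and separated by flow cytometry on CD34 and the Fc gamma receptor. Each array carried Cy3-labelled RNA of 1 population. CMP 1, CMP 2, GMP 1 and GMP 2 shared slide 1, and CMP 3 and GMP 3 shared slide 2, so that every difference could be read within each slide. Megakaryocyte-erythroid progenitors (MEP), the other branch that CMP feed, lay on the same slides in the same numbers and are given beside some values.

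A miR is a short RNA that guides a repressor complex to messages pairing with its seed, the bases near its 5′ end, so that miRs with one seed can repress many of the same messages. Several miRs are known in this lineage: miR-223 accumulates in granulocytes under the control of C/EBPα, miR-144 and miR-451 mark red cell precursors, and miR-125, miR-99, miR-126, miR-130a and miR-196 are described in stem cells and early progenitors. A sorted population is defined by surface proteins, which a miR array does not measure, and may be mixed. A lower level in such a bulk sample can come from fewer cells with the miR or from less of it per cell, which cannot be told apart.

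Mature sequences show which of the changed miRs share a seed. Of the 235 tested mouse miRs, 186 were matched to a mature sequence of RefSeq (build GRCm38.p6). The sequences are written 5′ to 3′ with the seed, bases 2 to 8, in capitals, and those of the miRs that were higher in GMP come first.
miR-149 (miR-149-5p): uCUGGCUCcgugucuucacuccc
miR-582-5p: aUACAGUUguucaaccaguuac
miR-139-5p: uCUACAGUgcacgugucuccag
miR-148a (miR-148a-3p): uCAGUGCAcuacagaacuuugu
miR-148b (miR-148b-3p): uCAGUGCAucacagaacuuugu
miR-152 (miR-152-3p): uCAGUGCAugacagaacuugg
miR-18a (miR-18a-5p): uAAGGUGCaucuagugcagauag
miR-223 (miR-223-3p): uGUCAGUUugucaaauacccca

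The second set holds the miRs that were lower in GMP, with the close relatives that make up their seed families.
miR-125a-5p: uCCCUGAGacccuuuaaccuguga
miR-125b-5p: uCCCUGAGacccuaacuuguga
miR-99a (miR-99a-5p): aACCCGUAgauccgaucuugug
miR-99b (miR-99b-5p): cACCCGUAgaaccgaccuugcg
miR-100 (miR-100-5p): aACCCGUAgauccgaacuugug
miR-196a (miR-196a-5p): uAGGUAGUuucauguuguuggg
miR-196b (miR-196b-5p): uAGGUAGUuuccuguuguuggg
miR-126-3p (miR-126a-3p): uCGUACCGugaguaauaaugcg
miR-130a (miR-130a-3p): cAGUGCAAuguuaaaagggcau
miR-130b (miR-130b-3p): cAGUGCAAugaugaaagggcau
miR-322 (miR-322-5p): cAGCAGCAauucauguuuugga
miR-193b (miR-193b-3p): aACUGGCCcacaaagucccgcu

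Within these families the members differ by few bases. The mature forms of miR-99a and miR-100 differ at 1 of 22 positions and those of miR-196a and miR-196b at 1 of 22. MiR-148a and miR-148b differ at 2 of 22, and so do miR-130a and miR-130b. Probes of such close relatives may bind each other's target, and this was not tested. The seeds of miR-148a and miR-130a are neighbours as well: the last 6 letters of the first, AGUGCA, are the first 6 letters of the second.

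Signal differed more between slides than between replicates of a slide. Across the 237 tested miRs, Pearson's r between arrays of one population was 0.989 to 0.990 on the same slide, and 0.943 to 0.964 on different slides. Between CMP and GMP arrays of the same slide it was 0.955 to 0.970. The 95th percentile of the negative control spots was 30.6 and 44.3 units on CMP 1 and CMP 2 and 17.3 and 13.3 units on GMP 1 and GMP 2, whereas it was 2.21 units on CMP 3 and 2.19 on GMP 3. Summed signal ran from 66237 units on CMP 3 to 335064 units on GMP 2, and no spot was saturated. MiR-142-3p and miR-142-5p, found throughout the blood lineage, were well above background on all 6 arrays. Of 13 miRs of muscle, liver, brain and epithelium, 1, miR-200b, passed the filter for testing, and none of the 6 arrays read it well above background (1.85 in CMP and 2.56 in GMP, higher with slide as a block).

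Levels below are log2 units of quantile-normalized signal, in which the lowest value, 1.62, is a floor, and differences are GMP minus CMP. Calls are adjusted p values under 0.05 in limma, fitted on all 16 arrays with a mean per population. Between CMP and GMP 18 of the 237 tested miRs (7.59%) were called, 7 higher in GMP (2.95%) and 11 lower (4.64%). With slide as a block in the same model 68 miRs (28.7%) were called, 31 higher (13.1%) and 37 lower (15.6%), and with the replicate number within slide as the block 63 were called. All 18 were among the 68 and had no overlap between the arrays of CMP and GMP. They therefore also had the same sign in each of the 3 pairs of arrays matched by slide and number. Such a lack of overlap was found for 61 of all 237 miRs (25.7%), and the same sign in all 3 pairs for 119. The split between higher and lower depended on the scaling: it was 9 higher and 4 lower with arrays scaled to the 75th percentile of all probes, 11 and 21 with that of the detected probes, and 15 and 12 in the deposited log2 values, and the median over all miRs moved from -0.01 to 0.17, -0.15 and 0.03. With no normalization between arrays 2 were called. The count rested on single arrays: it was 8 without GMP 3, 9 without CMP 1 and 10 without CMP 2. Whichever of the 6 arrays was left out, 8 of the 18 were still called, namely miR-149, miR-582-5p, miR-139-5p, miR-148a, miR-362-5p, miR-125a-5p, miR-151-5p and miR-193b. Those of the 8 that were lower in GMP, miR-125a-5p, miR-151-5p and miR-193b, were well above background on none of the 6 arrays. Of the other miRs called lower, miR-99a came nearest, called in 5 of the 6 fits.

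**Figure D1:**
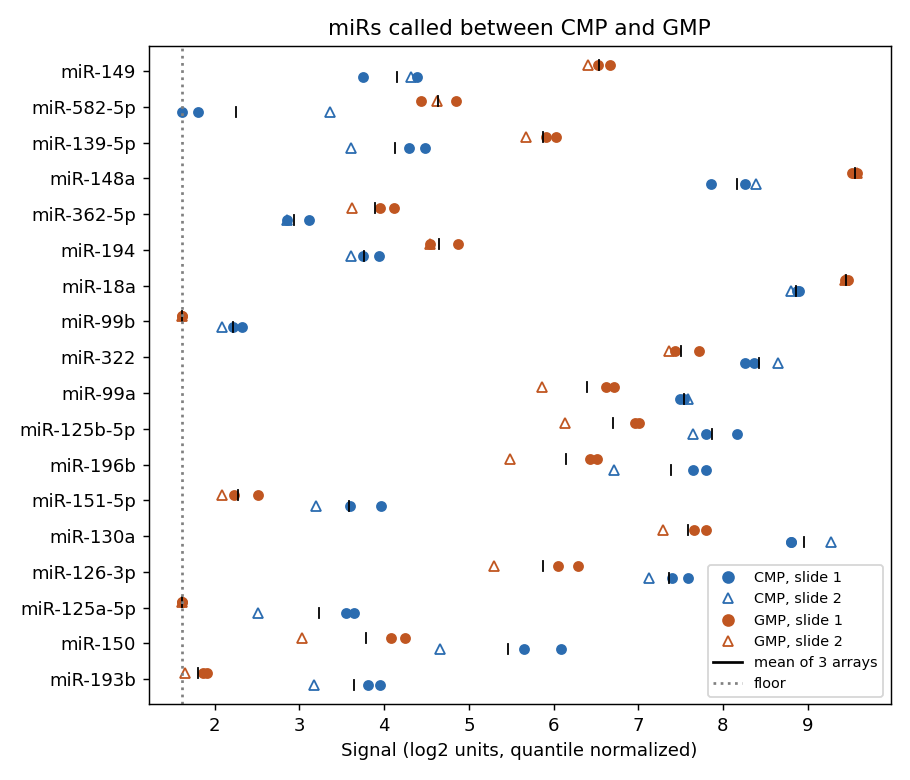
Signal in log2 units of the 18 called miRs on each CMP array (blue) and GMP array (orange), with filled circles for slide 1, open triangles for slide 2, a bar at the mean of 3 arrays and a dotted line at the floor of 1.62. In each of the 18 rows the CMP and GMP symbols do not overlap; the GMP arrays of miR-99b and miR-125a-5p all sit on the floor.

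MiR-149 was higher in GMP and was called in each of 26 alternative settings that tested it. Its level was 3.75, 4.38 and 4.31 on CMP 1 to 3, and 6.53, 6.66 and 6.41 on GMP 1 to 3. Every GMP array stood above every CMP array by more than the spread within either population, although only 1 of the 3 CMP arrays was well above background. The difference was 2.39 ± 0.39 (SE), with an adjusted p of 0.0019 in limma, and it was 2.53 on slide 1 and 2.10 on slide 2.

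MiR-582-5p, encoded in an intron of the phosphodiesterase gene Pde4d, was well above background on all GMP arrays and on no CMP array. GMP arrays read 4.44, 4.84 and 4.62, against 1.62, 1.80 and 3.36 in CMP. It was therefore at least 1.26-fold higher in GMP, with an adjusted p of 0.0019. MiR-139-5p, encoded in an intron of another phosphodiesterase gene, Pde2a, read 4.29, 4.49 and 3.61 in CMP and 5.92, 6.03 and 5.67 in GMP. The 2 groups were well apart, although 1 of the 3 CMP arrays was well above background, and the difference was 1.74 ± 0.35 (SE; adjusted p = 0.0081). The other arm of its hairpin, miR-139-3p, was as bright in both populations, at 5.76 in CMP and 5.75 in GMP, and was not called (adjusted p = 0.99, also with slide as a block, 0.98).

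MiR-148a, a regulator of the methylase Dnmt1 among other messages, was well above background on all 6 arrays. The CMP arrays read 7.86, 8.26 and 8.40, and the GMP arrays lay within a narrow band at 9.52, 9.58 and 9.58. MiR-148a was 2.62-fold higher in GMP, a difference of 1.39 ± 0.22 (SE; adjusted p = 0.0019). Its relatives with the same seed did not pass without the block: miR-148b was 6.15 in CMP and 6.55 in GMP (adjusted p = 0.37, and 0.038 with slide as a block), and miR-152 was 3.17 and 3.56 (0.59, and 0.078 with the block).

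Smaller increases were seen for miR-362-5p, miR-194 and miR-18a. MiR-362-5p read 2.86, 3.11 and 2.86 in CMP, where no array was well above background, and 3.95, 4.11 and 3.62 in GMP, where all were (adjusted p = 0.0085). The lowest signal read well above background was 4.05, 4.65 and 4.21 on CMP 1 to 3. These limits lie above the GMP mean of miR-362-5p, so no fold is given for it. MiR-194, which shares a transcript with miR-192 in one of its copies, read 3.75, 3.94 and 3.60 in CMP, again with no array well above background, and 4.54, 4.87 and 4.54 in GMP. It was at least 1.27-fold higher in GMP (adjusted p = 0.032). MiR-18a, from the growth-promoting miR-17~92 cluster, was bright and tightly grouped, at 8.90, 8.88 and 8.80 in CMP and 9.44, 9.48 and 9.44 in GMP. That 1.51-fold difference was just past the threshold (adjusted p = 0.047). Neither miR-18a nor miR-194 was called in any of the 6 fits that left out 1 array.

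MiR-223, the granulocyte miR, just missed the threshold without the block and passed it with slide as a block. CMP arrays read 12.70, 12.88 and 12.39. The 3 GMP arrays each read 14.04, the top of the quantile scale, which has no room above it. Before normalization the signal was 7539, 10217 and 2276 units on CMP 1 to 3 and 25563, 31658 and 9781 units on GMP 1 to 3, so that on each slide both populations were far above background and GMP was higher. The difference was 1.38 (adjusted p = 0.057, and 0.011 with slide as a block), and 1.83 with no normalization between arrays. It also passed with no block when arrays were scaled to the 75th percentile of the detected probes (adjusted p = 0.014) or of all probes (0.036), when the 6 arrays were fitted alone (0.020) and in the deposited log2 values (0.044), but in none of the 6 fits that left out 1 array.

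MiR-338-3p and miR-146b likewise missed the threshold without the block and passed it with the block. They were called in 15 and 14 of 26 alternative settings that tested them, 1 of which used unadjusted p values, and in none of the 6 of these that left out 1 array. MiR-338-3p, encoded in the Aatk gene, read 5.07, 5.20 and 5.86 in CMP and 7.31, 7.37 and 7.71 in GMP, a difference of 2.09 (adjusted p = 0.066, and 0.00064 with slide as a block). MiR-146b, which damps Toll-like receptor signalling, read 6.37, 6.62 and 5.85 in CMP and 8.14, 7.91 and 7.86 in GMP, a difference of 1.69 (0.057, and 0.0084 with the block). For both, the lowest GMP array lay above the highest CMP array. MiR-146a, which has the same seed as miR-146b, was 5.04 in CMP and 4.71 in GMP and was not called in either model (adjusted p = 0.88, and 0.40 with the block).

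**Figure D2:**
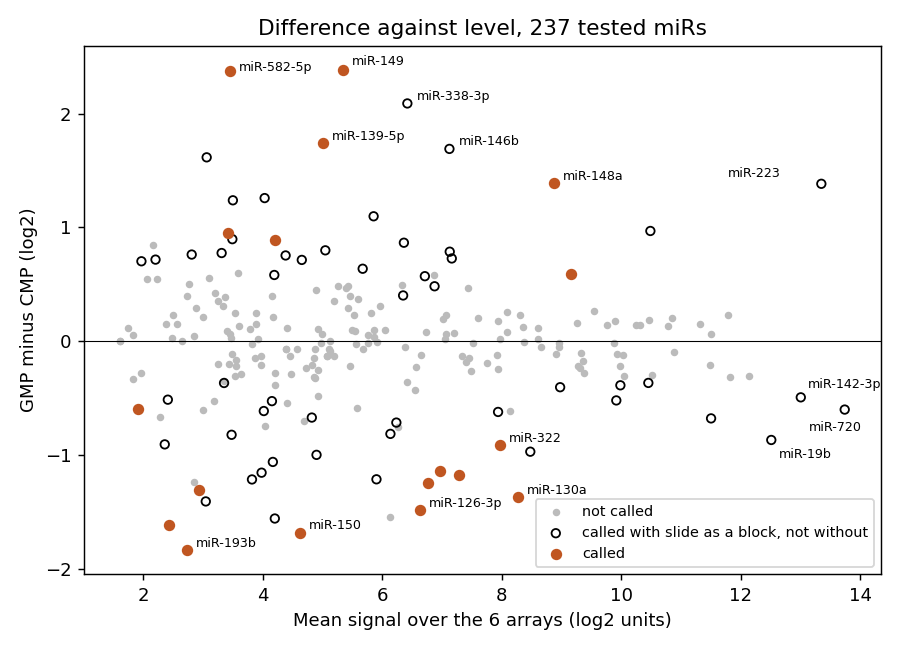
GMP minus CMP on the log2 scale (vertical axis) against the mean signal over the 6 arrays in log2 units (horizontal axis) for the 237 tested miRs, with called miRs filled in orange and those not called without a block but called with slide as a block as open circles. MiR-149 and miR-582-5p stand highest at 2.39 and 2.38, miR-193b stands lowest at -1.84, and miR-223 lies at the right edge at 1.38.

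Among the miRs lower in GMP, miR-126-3p, encoded within the endothelial gene Egfl7 and known to restrain stem cell cycling, was well above background on all 6 arrays. It read 7.58, 7.40 and 7.12 in CMP and 6.05, 6.29 and 5.30 in GMP. All CMP arrays were above all GMP arrays, and miR-126-3p fell by 1.49 ± 0.35 on the log2 scale (SE; adjusted p = 0.021). The opposite arm, miR-126-5p, read 5.20, 5.14 and 4.61 in CMP and 3.91, 4.05 and 2.31 in GMP (adjusted p = 0.052, and 0.00028 with slide as a block).

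MiR-130a, which is abundant in stem cells and falls as megakaryocytes form, was also lower in GMP. The CMP arrays read 8.80, 8.80 and 9.28 and the GMP arrays 7.80, 7.66 and 7.29, a 2.59-fold difference (adjusted p = 0.045) that was not called in any of the 6 fits that left out 1 array. Of its 3 relatives matched to the same seed none was called in either model: miR-130b was 8.37 in both populations, miR-301a was 7.85 in CMP and 8.02 in GMP, and miR-721 had a difference of 0.50. MiR-301b of the same family, for which no sequence was matched, was 5.28 and 5.57 and was not called in either model.

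MiR-125b-5p, whose forced expression expands stem and progenitor cells, read 8.17, 7.80 and 7.65 in CMP and 6.96, 7.01 and 6.13 in GMP (difference -1.17 ± 0.27 SE, adjusted p = 0.021). MiR-99a lies with miR-125b-5p, in the copy Mir125b-2, within 47361 bp of chromosome 16 (chr16:77598940-77646300, GRCm38.p6). It read 7.55, 7.50 and 7.58 in CMP and 6.62, 6.72 and 5.86 in GMP. Its CMP arrays lay close together and the difference was -1.14 ± 0.24 (SE; adjusted p = 0.011). A second such group lies within 647 bp on chromosome 17 (chr17:17830194-17830840) and holds miR-99b, let-7e and miR-125a-5p. MiR-125a-5p was 3.64, 3.54 and 2.51 in CMP and at the floor on all GMP arrays (adjusted p = 0.0019), miR-99b was 2.32, 2.22 and 2.09 and also at the floor in GMP (adjusted p = 0.047), and none of the 6 arrays read either one well above background, so no fold is given. Let-7e was 4.43 in CMP and 3.21 in GMP (adjusted p = 0.057, and 0.0020 with the block).

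MiR-196b, encoded in the Hoxa cluster, read 7.80, 7.65 and 6.72 in CMP and 6.43, 6.51 and 5.48 in GMP. The arrays of slide 2 were the lowest of both groups, and within each slide the gap was nearly the same, -1.25 on slide 1 and -1.24 on slide 2 (adjusted p = 0.042). MiR-150, which represses Myb and rises in lymphocytes, read 6.09, 5.65 and 4.65 in CMP and 4.24, 4.08 and 3.02 in GMP. It fell by 1.68 ± 0.44 (SE; adjusted p = 0.036), with 2 of the 3 GMP arrays well above background. MiR-322, of the miR-15 and miR-16 seed family that targets cell cycle genes, read 8.26, 8.37 and 8.65 in CMP and 7.44, 7.71 and 7.37 in GMP (difference -0.92, adjusted p = 0.034).

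MiR-193b and miR-151-5p were called with low signal. MiR-193b was 3.95, 3.81 and 3.17 in CMP and 1.86, 1.91 and 1.65 in GMP, and had the lowest adjusted p of all, 0.0010. MiR-151-5p was 3.96, 3.60 and 3.20 in CMP and 2.23, 2.51 and 2.08 in GMP (adjusted p = 0.0029). None of the 6 arrays read either of them well above background, so their differences lie within the range in which the scanner software did not separate signal from background.

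Members of a seed family moved unequally in several cases. Of 21 seeds shared by at least 2 tested miRs, 6 had at least 2 members called with slide as a block, and in 1 of these, let-7, members were called in both directions. That block called 28.7% of all tested miRs, 13.1% higher and 15.6% lower. Whether the seeds held more calls than this share gives was not tested. MiR-99a, miR-99b and miR-100 were all lower, as were miR-125a-5p and miR-125b-5p, and miR-196a and miR-196b. In the miR-17 seed family of 6 members, 1, miR-106b, was called with the block, at 10.64 in CMP and 10.27 in GMP. Its lower value depended on the scaling. The difference of miR-106b was 0.02 with arrays scaled to the 75th percentile of all probes, -0.31 with that of the detected probes and -0.03 with no normalization. Of the 9 let-7 miRs, let-7e was lower and miR-98 was higher with the block, while the 7 others were called in neither model. Let-7e was well above background on only 1 CMP array and 1 GMP array.

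Position gave a similar picture, with each miR set at 1 position, so that any further copy of it elsewhere was not considered. The tested miRs made 46 groups of neighbours on one strand, each within 10 kb of the next. Beside 28.7% of all tested miRs called with slide as a block, 8 groups held at least 2 such miRs and 2 held calls in both directions. One of these was the miR-17~92 cluster, from which miR-18a and the star form miR-19a* were higher in GMP and miR-19b, at 12.95 in CMP and 12.08 in GMP, was lower with slide as a block. MiR-19a* was 2.07 on slide 1 and -0.41 on slide 2, and the difference of miR-19b turned to 0.09 with arrays scaled to the 75th percentile of all probes and to 0.04 with no normalization. MiR-17, miR-20a, miR-19a and miR-92a of that cluster had differences of 0.23, 0.23, 0.19 and -0.31 and were called in neither model. The other held miR-322, miR-503, miR-542 and miR-450 on the X chromosome, where miR-322 and miR-542-5p were lower and miR-450a-3p was higher with slide as a block. MiR-542-5p and miR-450a-3p were each well above background on 2 of the 6 arrays.

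The 13 miRs described in stem cells and early progenitors were lower in GMP as a list. All 13 had a negative difference, with a median of -1.17, against -0.01 over all tested miRs, of which 48.1% were above 0. In limma 7 of the 13 were called lower and none higher, beside 4.64% of all tested miRs, and 11 were called lower with slide as a block, beside 15.6%. The 2 not called in either model were miR-10a, at 7.61 in CMP and 7.35 in GMP, and miR-10b, at 4.61 and 4.54. Of the 7 called without the block, miR-125a-5p and miR-99b were well above background on no CMP or GMP array. They passed the filter only through arrays of other populations. The list was also chosen with earlier results of these data known, so these shares are not independent evidence. Summed over the list the signal ran from 1474 to 1788 units in CMP and from 508 to 963 units in GMP. The count of 7 fell to 1 without GMP 3, to 2 without CMP 1 or without CMP 2 and to 4 without GMP 1, while the median ran from -1.40 to -0.87. It was 10 with arrays scaled to the 75th percentile of the detected probes, 2 with that of all probes and 0 with no normalization between arrays, where the medians were -1.36, -1.03 and -1.08.

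**Figure D3:**
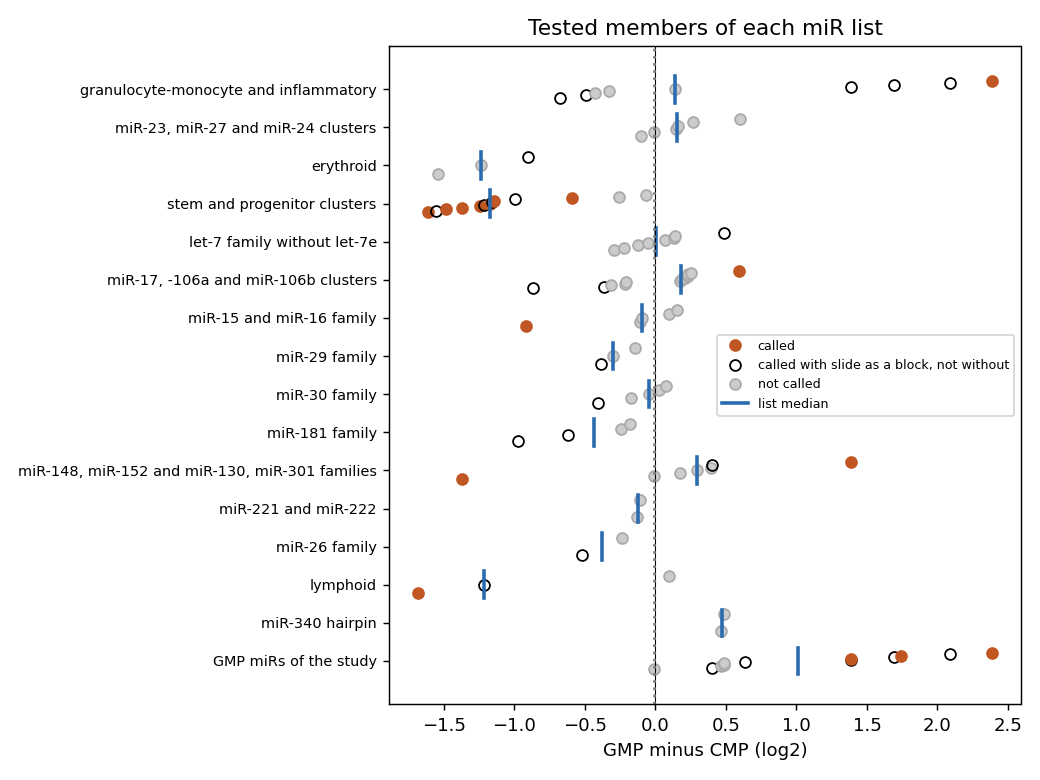
GMP minus CMP on the log2 scale for every tested member of each miR list, with orange points for called miRs, open circles for those not called without a block but called with slide as a block, grey points for the rest, a blue bar at the list median and a dotted line at the median of all tested miRs, -0.01. The 13 stem and progenitor miRs all lie left of 0, and the granulocyte-monocyte list spans from -0.68 to 2.39.

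The 9 miRs listed as granulocyte-monocyte and inflammatory did not move as one. The list, miR-149 and miR-338-3p included, was chosen with earlier results of these data known. In limma 1 was called, miR-149, beside 2.95% of all tested miRs higher in GMP. With slide as a block 4 were higher, miR-149, miR-338-3p, miR-146b and miR-223, beside 13.1%, and 2 were lower, beside 15.6%. All 4 that were higher are also among the miRs that the study set apart for GMP on these arrays. Their count is thus not independent evidence of direction. The 2 that were lower are not among them. Those 2 were miR-21, which read 11.57, 11.73 and 12.24 in CMP and 10.89, 11.21 and 11.40 in GMP, and miR-142-3p, at 13.25 in CMP and 12.76 in GMP. MiR-155, a miR of activated immune cells, was 6.77 in CMP and 6.34 in GMP and miR-142-5p was 9.68 and 9.82, neither called in either model. The lower value of miR-142-3p depended on the scaling: its difference was 0.57 when arrays were scaled to the 75th percentile of all probes, 0.23 with the percentile of the detected probes and 0.52 with none. The same held in part for miR-19b (-0.87, against 0.09, -0.24 and 0.04).

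Of 12 miRs that the study itself set apart for GMP, 11 were above CMP, with a median difference of 1.01, and 3 were called, miR-149, miR-139-5p and miR-148a, beside 2.95% of all tested miRs higher in GMP. With slide as a block 8 were called, beside 13.1%. That list was chosen on these arrays and is not independent evidence of its direction. The study tested GMP against all its other populations with a one-sided test at an unlike threshold, so the counts are not directly comparable. The member that was not above CMP was miR-27b, at 8.97 in CMP and 8.96 in GMP.

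Red cell miRs, which mark MEP, were not called between CMP and GMP without the block. MiR-451 read 7.83, 6.26 and 6.63 in CMP and 5.33, 4.82 and 5.95 in GMP, against a mean of 12.12 in MEP, and its difference of -1.54 was not called (adjusted p = 0.15, and 0.086 with slide as a block). MiR-144 was lower with the block (2.81 in CMP and 1.91 in GMP, 0.039) but no array of CMP or GMP read it well above background, and 1 did so for miR-486. Summed over the 3, signal was 88.1 to 258 units in CMP and 34.4 to 76.9 units in GMP, with no overlap, like the stem and progenitor list, and the part of these miRs in that result was not tested. Of the lymphoid markers, miR-150 was called lower and miR-342-3p was not called, at 5.45 in CMP and 5.55 in GMP. MiR-128 was in the same list but not among the markers set for lymphoid cells. It was lower with the block, at 6.51 in CMP and 5.30 in GMP.

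Several families were called in neither direction. None of the 6 tested miRs of the miR-23, miR-27 and miR-24 clusters was called in either model, and neither were miR-221 and miR-222 or the 2 arms of miR-340. The largest of these differences was 0.60, for miR-24-2*. With slide as a block 1 of 3 miR-29 miRs, 1 of 5 miR-30 miRs, 1 of 2 miR-26 miRs and 2 of 4 miR-181 miRs were lower, beside 15.6% of all tested miRs. Among them were miR-181a, a tuner of lymphocyte receptor signalling, at 8.96 in CMP and 7.99 in GMP, and miR-26a, at 10.18 and 9.66. For 134 miRs all 6 arrays read well above background, and among these the median size of the difference was 0.23, and 101 differed by less than 0.5.

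MEP shared slides with both populations and its means are set side by side, with no test since each comparison with MEP uses the same arrays. For 6 of the 7 miRs called higher in GMP the MEP mean lay below that of CMP, as for miR-149 (4.15 in CMP, 6.53 in GMP and 2.40 in MEP) and miR-148a (8.17, 9.56 and 7.28). The exception was miR-18a, with 9.62 in MEP. Of the 11 miRs called lower in GMP, 7 had a MEP mean below that of GMP, as for miR-99a (7.54, 6.40 and 3.72) and miR-130a (8.96, 7.59 and 4.99), 2 were at the floor in both, and 2, miR-193b and miR-151-5p, were above CMP in MEP, at 3.90 and 4.30. MiR-223 was 12.66 in CMP, 14.04 in GMP and 9.61 in MEP.

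**Figure D4:**
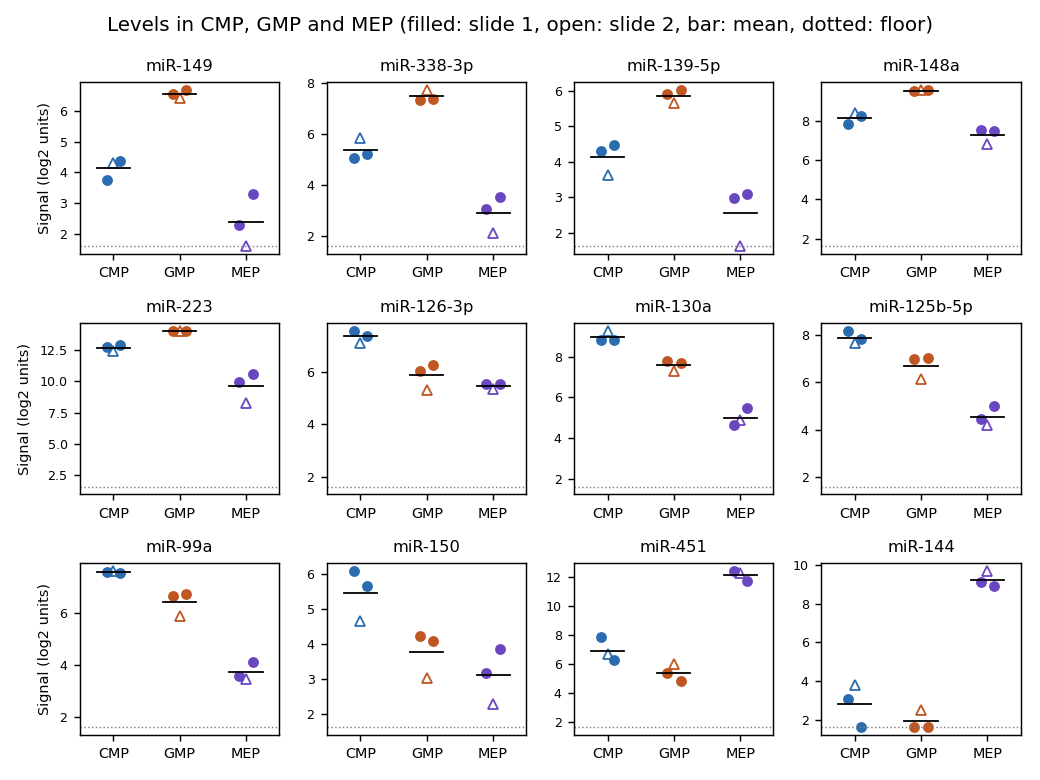
Signal in log2 units of 12 miRs on each array of CMP (blue), GMP (orange) and MEP (purple), with filled circles for slide 1, open triangles for slide 2, a bar at the mean and a dotted line at the floor. MiR-149, miR-338-3p, miR-139-5p, miR-148a and miR-223 are highest in GMP, miR-126-3p, miR-130a, miR-125b-5p, miR-99a and miR-150 are highest in CMP, and miR-451 and miR-144 are highest in MEP.

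Whether the difference itself changed between slides was tested with an interaction term. It was called for 7 of the 237 miRs (2.95%), 1 of them among the 18, miR-582-5p, for which the difference was 2.93 on slide 1 and 1.27 on slide 2, higher in GMP on both. The CMP signal of miR-582-5p on slide 1 lay at or near the floor.

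**Figure D5:**
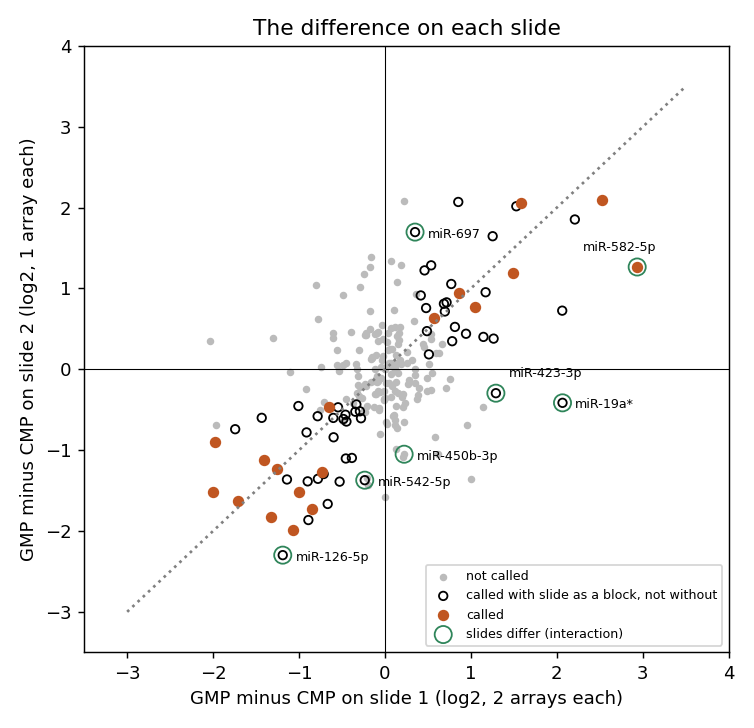
GMP minus CMP on slide 1 (horizontal axis, 2 arrays of each population) against slide 2 (vertical axis, 1 array of each), both log2, for the 237 tested miRs, with a dotted line of equality and green rings around the 7 miRs whose difference changed between slides. All 18 called miRs lie in the quadrants in which both slides have the same sign, as do 149 of the 237 tested miRs.

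GMP arrays had more miRs with a probe well above background. The number was 168, 145 and 160 on CMP 1 to 3 and 187, 196 and 178 on GMP 1 to 3, a mean of 157.7 ± 11.7 against 187 ± 9 (SD, n = 3 each). The groups did not overlap, and the difference of 29.3 had a two-sided exact permutation p of 0.1, the smallest that 3 against 3 can give. It was 35 on slide 1, where the negative controls were brighter on the CMP arrays, and 18 on slide 2, where they were alike. Summed signal was also higher on the GMP arrays. It was 66237 units on CMP 3 and 113362 on GMP 3. On slide 1 it was 240794 and 279737 units on CMP 1 and 2, and 282780 and 335064 on GMP 1 and 2. The part of signal and controls in the count was not tested. On all GMP arrays but no CMP array 10 miRs were well above background, among them miR-582-5p, miR-362-5p and miR-194, and none showed the reverse.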

How the data were processed

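The series holds 16 Agilent mouse miR arrays, each with a single Cy3-labelled RNA, and 6 of them are from CMP or GMP. Per the file headers, Feature Extraction (9.5.3.1 on slide 1, 10.2.1.3 on slides 2 and 3) wrote a background-subtracted intensity, mean and median intensities and calls per spot (well above background, saturated, outlier, control). A table of log2 values, which the authors made by quantile normalization in limma, serves as an alternative.

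Here, spots of a probe were averaged after outliers and controls were left out, signals were quantile-normalized over 16 arrays, values under 3.07 units were set to it (from the 95th percentile of 672 negative control spots per array, median of all arrays), and log2 was taken. Only probes that 3 or more of the 16 arrays read well above background were kept, which left 493 probes and 237 miRs (2 of them viral), each given by its brightest probe. A fold is given as at least a value where no array of the lower population read well above background. Differences were tested with lmFit and eBayes (limma 3.58.1, R 4.3.3; 10 residual degrees of freedom), two-sided and with Benjamini-Hochberg adjustment over 237 miRs. The fit held all 16 arrays with a mean per population, so that the other populations also set the spread. The steps were tested on simulated data. The number of arrays limits the precision.

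Slide was fitted as a block and differences were given within slides. Deviations from the population means correlated at 0.48, 0.47 and 0.63 for the same-numbered arrays of a slide and the slide 2 pair, and at 0.35 and 0.45 for crossed numbers on slide 1. Replicates were pools of mice, and nothing in the sources used here says how the pools of different arrays were kept apart, so p-values measure the spread between these arrays. The third CMP and GMP arrays carried no number in their titles.

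Named miRs were, by rule, called miRs with the largest differences and no overlap, miRs known in blood formation, the members of each list with the highest level and the called miRs with the highest level. The remaining called miRs and the relatives and cluster neighbours were chosen after their values were seen. Members and lists were chosen with earlier results of these data known. Mature sequences were matched by name or, for 133 miRs, by the arm that holds the 3′ end of the array's position. Alternatives were the scaling, floor, filter, probe summary, samples in the fit, block, single arrays left out and the deposited values.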

Additional observations from a re-analysis of the deposited data

Results flagged for a closer look

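For 7 miRs the difference between GMP and CMP itself differed between the slides by the interaction test in limma (slide 1 minus slide 2). Slide 2 had 1 array of each population, taken to vary like the rest. MiR-582-5p differed by 1.67 (adjusted p = 0.031), being higher in GMP on both slides, at 2.93 and 1.27. MiR-126-5p differed by 1.11 (0.033) and was lower in GMP on both, at -1.19 and -2.30, as was miR-542-5p, with 1.14 (0.043), at -0.24 and -1.37. MiR-697 differed by -1.35 (0.017) and was 0.35 on slide 1 and 1.70 on slide 2. The sign turned between slides for the other three: miR-19a* differed by 2.48 (0.027; 2.07 and -0.41), miR-423-3p by 1.59 (0.016; 1.29 and -0.30) and miR-450b-3p by 1.27 (0.017; 0.22 and -1.05).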

How the results depend on the processing

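The 18 called miRs kept their sign in every setting in which they were tested, except miR-99b, which was at the floor in both populations with a floor of 10 units. The number called was 32 with arrays scaled to the 75th percentile of the detected probes, 2 with no normalization between arrays and 7 with probes well above background on all 16 arrays. It was 31 with a rule on several probes at an unadjusted p, set for GMP against CMP without the study's copy threshold. At an unadjusted p under 0.05 the number was 50. It was 68 with slide as a block, 49 with that block in the 6 arrays alone and 49 within slide 1, while slide 2, with 1 array a population, gave values and no test. With the replicate block within slide it was 63, and 15 with the replicate block in the 6 arrays alone. Settings added after seeing the data combined the slide block with the 75th percentile of the detected probes (69), that of all probes (65), no normalization (33), a floor of 10 units (56) and the deposited values (59). Leaving out 1 array gave 8 to 22. List members called, 12 in all, came to 21, 1, 7, 20 and 29 in the first 5 of these settings, 7 with the 75th percentile of all probes, 33 with the slide block, 27 with it in the 6 arrays alone, 21 within slide 1, 33 with the replicate block within slide and 8 with it in the 6 arrays alone, then 36, 31, 18, 31 and 30 in the added settings, and 3 to 11 with 1 array left out. The slide differences, 7 in all, were 13 with the 75th percentile of the detected probes, 12 with no normalization, 12 with a floor of 10 units and 51 at an unadjusted p. The difference in detected miRs was 23 to 34.5 with 1 array left out. The cause of these changes was not tested. Signal near background limits the low miRs, for which a difference has no reliable fold.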
